A study of Oryzias latipes and Danio rerio with 6 samples.

Results

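The regions described here are places on the inner parts of medaka chromosomes where Dam fused to GFP marked DNA more than either of the Yap fusions did. A region was taken when it was listed in the Dam-GFP control list paired with Yap1 and overlapped, by at least 1 bp, a region of the control list paired with Yap1b. Only chromosomes 1 to 24 were used, and the midpoint had to lie more than 1 Mb from both ends, with the last region end of a chromosome over the 4 medaka lists standing in for its length. The rule gave 986 regions of the Yap1 control list and 983 of the Yap1b control list, 1969 of the 52712 regions deposited for the series and of the 8984 deposited under medaka Dam-GFP. Overlapping regions were joined into 975 loci. The regions were thus chosen by the measured contrasts of Dam-GFP against each fusion, so their number, scores, lengths and edges are given as a description.

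The study set Dam fused to a Yap family protein against Dam fused to GFP in whole wild-type fish embryos injected with the mRNA of each fusion. The medaka groups were DAM-mGFP, from which the regions here come, DAM-mYap1 and DAM-mYap1B, each at stage 16 by the sample labels, although the protocol text gives 80% epiboly for both species. The zebrafish groups, used only for comparison, were DAM-zGFP, DAM-zYap1 and DAM-zTaz at 80% epiboly. The labels' protocols count 40 embryos for a replicate and 3 replicates for a sample, but each contrast was deposited as 1 list with no value per replicate. Every group is therefore 1 sample, no spread between replicates could be computed, and no difference below has a replicate check. The embryos kept their own Yap proteins, the fusions came from injected mRNA, and the lists pool all its cells, so fewer marked cells and weaker marking per cell cannot be told apart.

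Dam is a bacterial enzyme that methylates the adenine of GATC. Fused to GFP it has no target of its own and is used to record how easily DNA can be reached, whereas fused to a chromatin protein it also marks the neighbourhood of that protein's contacts. Yap and Taz are co-activators at the end of the Hippo pathway, the signalling cascade that restrains tissue growth. They bind no DNA themselves and are brought to it mainly by TEAD transcription factors. A control region is thus a place where the free methylase marked more than the fusion, and it is not a place called unbound by an independent measure. Both control lists rest on the same Dam-GFP sample, so that sample alone can place a region in both. No source used here names the medaka genome build, and no genome of that build was used, so the loci are given by chromosome and position, starting at 1, without genes or sequence.

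The loci made up a minority of the inner control regions. They took in 28.3% of the 3484 inner regions of the Yap1 control list (Wilson 95% interval 26.8 to 29.8) and 40.3% of the 2437 inner regions of the Yap1b control list (38.4 to 42.3). These shares are set by the rule and stand only as the background of what follows. The intervals, here and below, cover the counting of regions of 1 sample. Outside the list of the other factor were 2498 inner Yap1 control regions and 1454 inner Yap1b control regions, called single-control regions below. Of all Yap1 control regions with a partner in the Yap1b control list, 986 of 1574 (62.6%) lay on inner chromosomes, as did 983 of 1567 (62.7%) from the side of Yap1b. Over all regions, with or without a partner, the inner share was 67.1% (65.8 to 68.4) in the Yap1 control list and 64.2% (62.7 to 65.7) in the Yap1b control list. Regions with a partner, a part of that whole, thus had a lower inner share in the Yap1 control list, with an interval of 60.2 to 65.0. In the Yap1b control list their interval of 60.3 to 65.1 met that of all regions. The difference was not tested.

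The 2 lists, which rest on the same Dam-GFP sample, usually drew these loci alike. How often overlapping regions would share edges for that reason alone was not tested, nor whether edges could fall only at GATC sites. A locus consisted of 1 region in each list in 958 of 975 cases (98.3%), and the other 17 joined 3 or more regions. The exact start and end were the same in 755 of 994 overlapping pairs (76.0%, 73.2 to 78.5). A further 226 pairs (22.7%) shared 1 edge, and 13 pairs (1.31%) shared none. Where the edges were unlike, the Yap1 control region was the longer in 124 of 239 pairs and the Yap1b control region in 115, close to equal numbers. Unlike edges lay at least 205 bp apart, with a median of 643.5 bp and a maximum of 4471 bp.

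The same count in the regions most like these differed in size. Identical edges were listed for 1179 of 1986 overlapping pairs of inner Yap1 and Yap1b positive regions (59.4%, 57.2 to 61.5), where the fusion exceeded Dam-GFP. In zebrafish, the same rule applied to the Yap1 and Taz control lists gave 2276 of 3174 pairs (71.7%, 70.1 to 73.2). The medaka control pairs thus matched edge for edge more often than the medaka positive pairs, and their interval met that of the zebrafish control pairs. Positive loci were also longer. Within the medaka control pairs, identical edges were rarer where the longer region of the pair was longer, as given below with its limit. What length contributes to the difference was not tested.

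The control loci were short. The regions had median lengths of 784 bp in the Yap1 control list (quartiles 603 and 1095 bp) and 785 bp in the Yap1b control list (606 and 1067 bp). Single-control regions had medians of 845 bp in the Yap1 list and 826 bp in the Yap1b list. The joined loci had a median of 832 bp and ran from 314 to 4884 bp, against a median of 1183.5 bp for inner loci shared by the Yap1 and Yap1b positive lists. By length class, 33.4% (30.1 to 37.0) of inner Yap1 control regions under 600 bp were in both lists, as were 28.8% of those from 600 to under 1000 bp, 23.1% from 1000 to under 1500 bp and 27.0% from 1500 bp on. In the Yap1b control list the shares were 42.6%, 41.9%, 37.2% and 35.3% in the same order. Short regions were thus somewhat more often in both lists, by an amount close to the width of the intervals.

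Agreement on the edges moved more with the length of the longer region of a pair. Unlike edges lay at least 205 bp apart, so classing by the longer region tends to place unlike pairs in longer classes. Part of the course below is thus set by that choice, and its size was not tested. All 204 pairs whose longer region was under 600 bp had identical edges. The share was 388 of 422 pairs (91.9%) from 600 to under 1000 bp, 115 of 208 (55.3%) from 1000 to under 1500 bp and 48 of 160 (30.0%) from 1500 bp on.

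**Figure D1:**
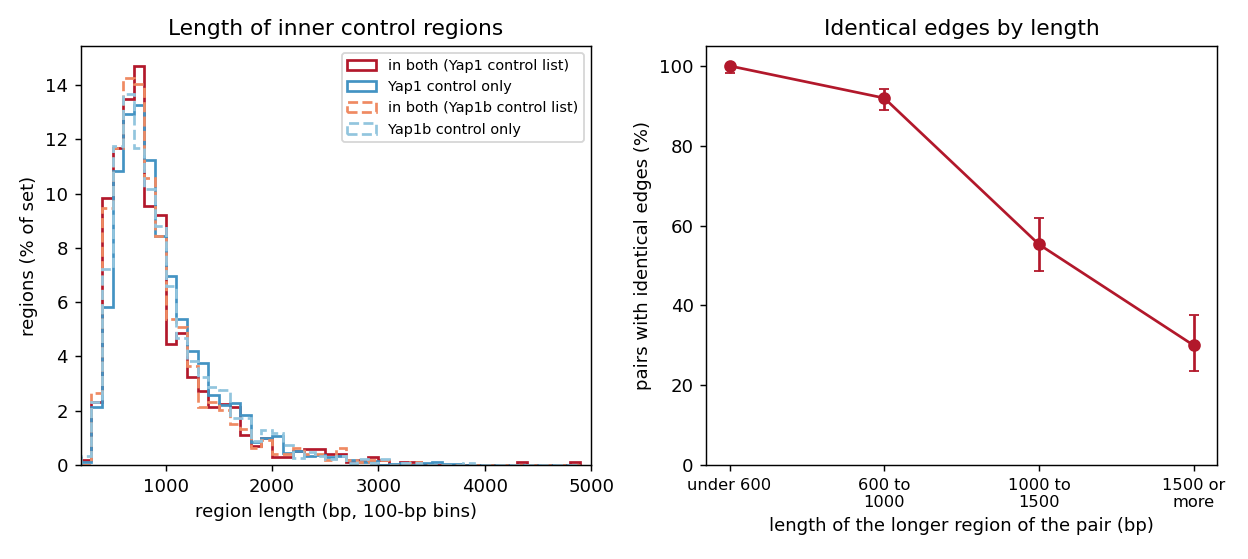
Left, lengths of inner control regions in 100-bp bins, as percent of each set, for regions in both control lists and regions of a single control list. Right, percent of overlapping pairs in both control lists with identical start and end, by length of the longer region, with Wilson 95% intervals; the share went from 100% under 600 bp to 30.0% from 1500 bp on.

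Some control regions lay 1 fixed distance from a neighbour. The smallest gap between a locus and a single-control region was 4 bp, the length of a GATC site, and 7 of 975 loci had such a neighbour, while the next smallest gap was 54 bp. Within the whole Yap1 control list 94 of 5190 regions lay exactly 4 bp from the nearest region of the list, of 261 with a neighbour within 1 kb. In the Yap1b control list 65 of 3794 regions did so, of 169 within 1 kb. The shortest overlap of any single pair of regions was 213 bp, far above the 1 bp that the rule asks for. Summed over the pairs of a locus, the shortest overlaps were 265 bp on chromosome 8 (1807391 to 1808385), 308 bp on chromosome 13 (4448315 to 4449454) and 314 bp on chromosome 8 (4545457 to 4545770). Just outside the rule, 8 single-control Yap1 regions lay 4 bp from a Yap1b control region.

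The longest overlap, summed in the same way, spanned 3094 bp of chromosome 4 (4244605 to 4247698), with identical edges in both lists. An overlap of 2928 bp on chromosome 15 (22911647 to 22914574) came second, and the third, on chromosome 4 (32781160 to 32783881), measured 2722 bp. Chromosome 5 (3282165 to 3284905) had 2717 bp, and chromosome 1 (38089560 to 38092190) had 2631 bp. All had the same outer edges in both lists, although the Yap1 list split the locus of chromosome 5 into 2 regions. Among these 5, a long overlap did not mean a high rank in both lists. The locus of chromosome 4 starting at 4244605 had a score percentile of 53.2 in the Yap1 control list and of 99.3 in the Yap1b control list. The locus of chromosome 5 had percentiles of 92.9 and 11.2 in the same order. The locus built of most regions, chosen after its values were seen, lay on chromosome 18 (6294794 to 6297178), where 2 Yap1 control regions met 3 Yap1b control regions.

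The authors gave each region a score whose quantity is not stated in the sources used here, so it was used only to rank regions within a list. In the Yap1 control list the regions found in both had a median score of 98 and a median percentile of 51.5, against 96 and 47.8 for single-control regions. In the Yap1b control list the medians were a score of 142 and a percentile of 55.4, against 132 and 41.4. The scores ran from 79 to 331 in the first list and from 112 to 347 in the second, so the loci began at the lowest deposited score of each list and included the highest of the Yap1 control list, while the highest of the whole Yap1b control list was 401. The highest of 4 equal score classes of the whole list held 246 of 986 Yap1 control regions found in both (24.9%), where 22.8% of all inner regions of that list lay in it. It held 289 of 983 in the Yap1b control list (29.4%), where the background was 22.7%. The lowest deposited score was carried by 37 regions found in both (3.75%) and 108 single-control regions (4.32%) of the Yap1 control list, and by 1 (0.102%) and 22 (1.51%) of the Yap1b control list.

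Seen from the score classes, the inner Yap1 control list was nearly flat. Regions also in the Yap1b control list made up 27.6% (24.8 to 30.5) of its lowest class, 26.0% of the second, 28.9% of the third and 30.9% (27.8 to 34.2) of the highest. In the inner Yap1b control list the share was 27.2% in the lowest class, with an upper limit of 30.7%, 42.5% and 42.2% in the middle classes and 52.3% (48.1 to 56.4) in the highest. The lists differ in length, the Yap1b control list being the shorter, and both rest on the same Dam-GFP sample.

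**Figure D2:**
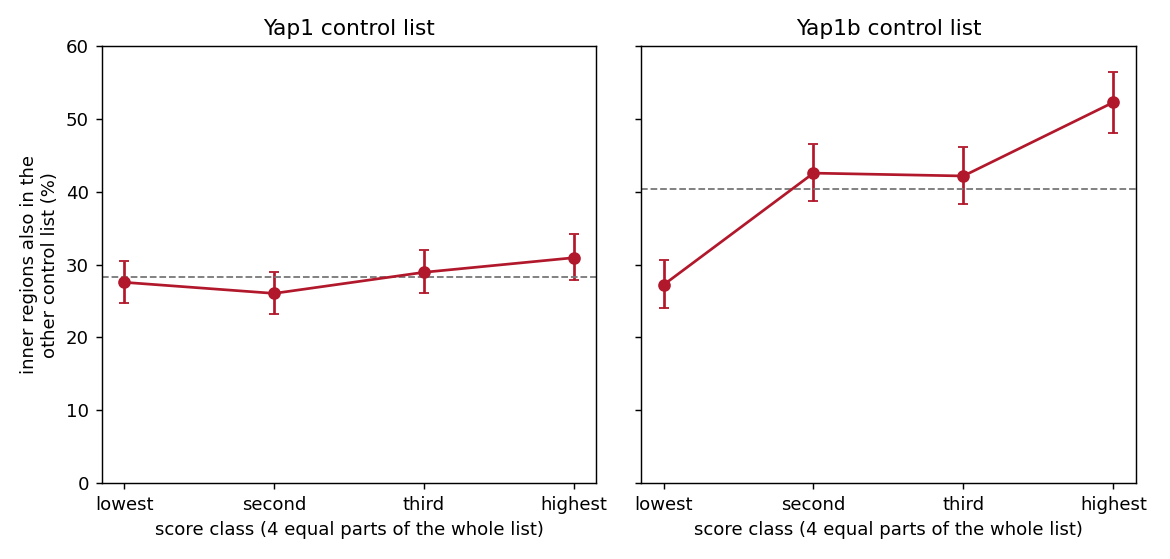
Percent of inner regions of each control list that were also in the other control list, by 4 equal score classes of the whole list, with Wilson 95% intervals; the dashed line is the share over all inner regions of the list. The Yap1 control list stayed between 26.0% and 30.9%, and the Yap1b control list went from 27.2% in the lowest to 52.3% in the highest class.

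By the mean of both percentiles, the first locus lay on chromosome 3 (3681934 to 3682952), with scores of 331 in the Yap1 control list, the highest of that list, and 344 in the Yap1b control list. It was followed by chromosome 7 (1425708 to 1427045), with scores of 200 and 347, and chromosome 17 (1294600 to 1297015), with 219 and 300. The fourth was on chromosome 4 (2094484 to 2095197), with 186 and 322, and the fifth on chromosome 1 (1387080 to 1388156), with 258 and 255. All 5 shared at least their start or their end between the lists, and those of chromosomes 3 and 4 shared both. All 5 lay between 1.30 and 3.68 Mb from the start of their chromosome. Over all loci the median score percentile showed no steady course with distance from the end. The median percentile was 55.2 in the Yap1 control list and 54.1 in the Yap1b control list for regions 1 to 2 Mb from an end, against 51.5 and 55.4 for those over 10 Mb from both ends.

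Position along the chromosome was not used by the rule beyond the limit of 1 Mb, and the loci were unevenly placed. They were densest just inside the limit, at 3.02 loci per Mb (exact Poisson 95% interval 2.55 to 3.55) from 1 to 2 Mb. The density was 2.44 per Mb (2.02 to 2.92) from 2 to 3 Mb and 1.63 (1.28 to 2.03) from 3 to 4 Mb. It was 1.40 from 4 to 6 Mb, 1.24 from 6 to 8 Mb, 1.26 from 8 to 10 Mb, 0.934 (0.750 to 1.15) from 10 to 12 Mb and 1.17 (0.999 to 1.35) beyond. The density thus came down over the first 4 Mb and changed less farther in. Outside the rule, within 1 Mb of an end, 168 loci of both lists gave 3.50 per Mb (2.99 to 4.07).

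Among the sets of inner regions compared here, the loci found in both controls had the highest ratio of outer to inner density. From 1 to 3 Mb they were 2.22 times as dense as farther in (1.92 to 2.55, counting error only), with 262 loci in 96.0 Mb against 713 in 578.8 Mb. The same ratio was 1.63 (1.48 to 1.80) for single-control Yap1 regions and 1.76 (1.56 to 1.99) for single-control Yap1b regions, whose interval met that of the loci. It was 0.954 (0.836 to 1.09) for the inner loci shared by Yap1 and Yap1b positive regions. With loci merged within 50 kb, the ratio of the loci in both controls was 1.94 (1.66 to 2.26). That interval met those of both single-control sets, which were not recomputed with merging. The zone of 1 to 3 Mb was chosen after the densities were seen, and the difference between these ratios was not tested, since regions of 1 sample are not replicates.

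The zebrafish loci of the same kind did not share the slope. There 3148 of 7956 inner Yap1 control regions (39.6%) and 3138 of 10368 inner Taz control regions (30.3%) lay in both lists and made 3113 loci, at 1.88 per Mb from 1 to 2 Mb, 2.68 from 2 to 3 Mb and 2.46 beyond 12 Mb. Their ratio of 1 to 3 Mb over the rest was 0.941 (0.822 to 1.08). Chromosome by chromosome, the medaka loci were denser from 1 to 3 Mb than farther in on 22 of 24 chromosomes, as were the single-control regions of each list. The shared positive loci were denser there on 12 of 24, and the zebrafish loci on 11 of 25. Species, labelled stage, factor, build, list length and lowest score change together between medaka and zebrafish, and cannot be told apart.

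**Figure D3:**
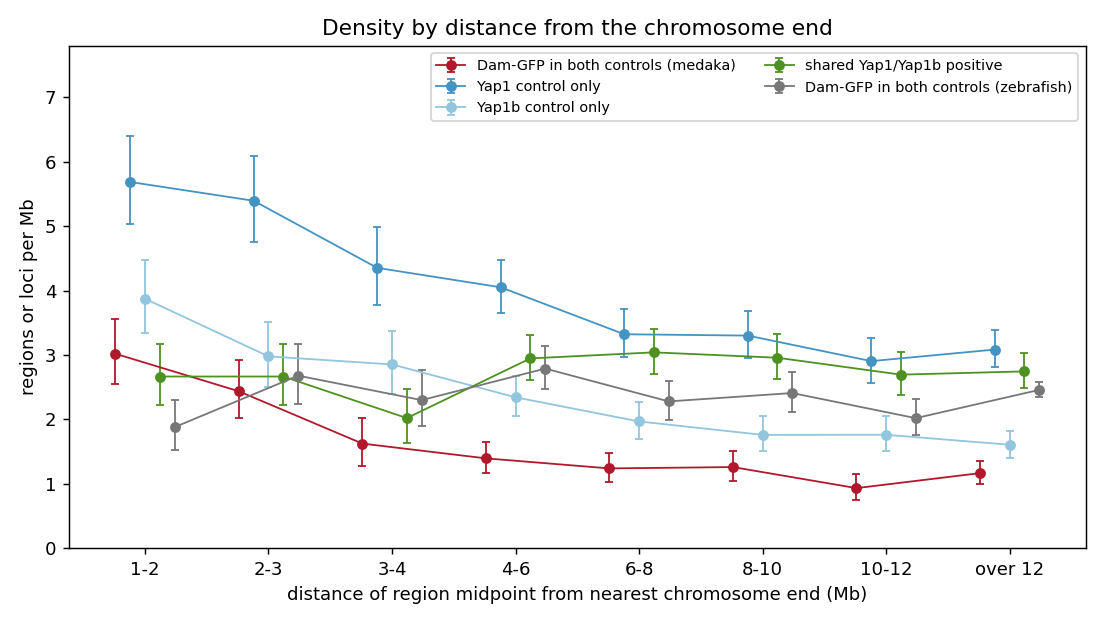
Regions or loci per Mb (vertical axis) by distance of the midpoint from the nearest chromosome end in Mb (horizontal axis), with exact Poisson 95% intervals, for medaka Dam-GFP loci in both controls, single-control regions, shared positive loci, and zebrafish Dam-GFP loci in both controls. The medaka loci in both controls went from 3.02 per Mb at 1 to 2 Mb to 1.17 beyond 12 Mb, while the shared positive loci had 2.67 and 2.75.

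The same counts can be given as shares, which restate the ratios above for the same zone and are no separate result. The share of control regions found in both lists was higher near the ends. In the Yap1 control list 263 of 795 regions from 1 to 3 Mb were in both (33.1%, 29.9 to 36.4), against 723 of 2689 farther in (26.9%, 25.2 to 28.6). In the Yap1b control list it was 265 of 594 (44.6%, 40.7 to 48.6), against 718 of 1843 (39.0%, 36.8 to 41.2), and these intervals met. Between 3 and 6 Mb, 6 and 10 Mb and beyond 10 Mb the shares stayed between 26.4% and 27.8% in the Yap1 list and between 37.0% and 40.4% in the Yap1b list.

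Not every end was dense. Over the 48 chromosome ends the zone from 1 to 3 Mb held a median of 5 loci, from 0 at the starts of chromosomes 2 and 6 to 14 at the start of chromosome 22. The ends of chromosomes 9 and 1 came next, with 12 and 11 loci, together with the start of chromosome 8, with 11. Chromosome 21 had 1 locus in the zone at each end. It was, with chromosome 6, the exception among the 24 chromosomes, with 0.5 loci per Mb from 1 to 3 Mb and 0.971 farther in, against 1.25 and 1.46 on chromosome 6. With the inner chromosome cut into 10 equal parts, the first held 156 loci (16.0%) and the last 173 (17.7%), whereas the fourth to seventh held from 69 to 77 each. By chromosome length, 488 of 975 loci (50.1%, 46.9 to 53.2) lay nearer to the start of their chromosome than to its end.

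**Figure D4:**
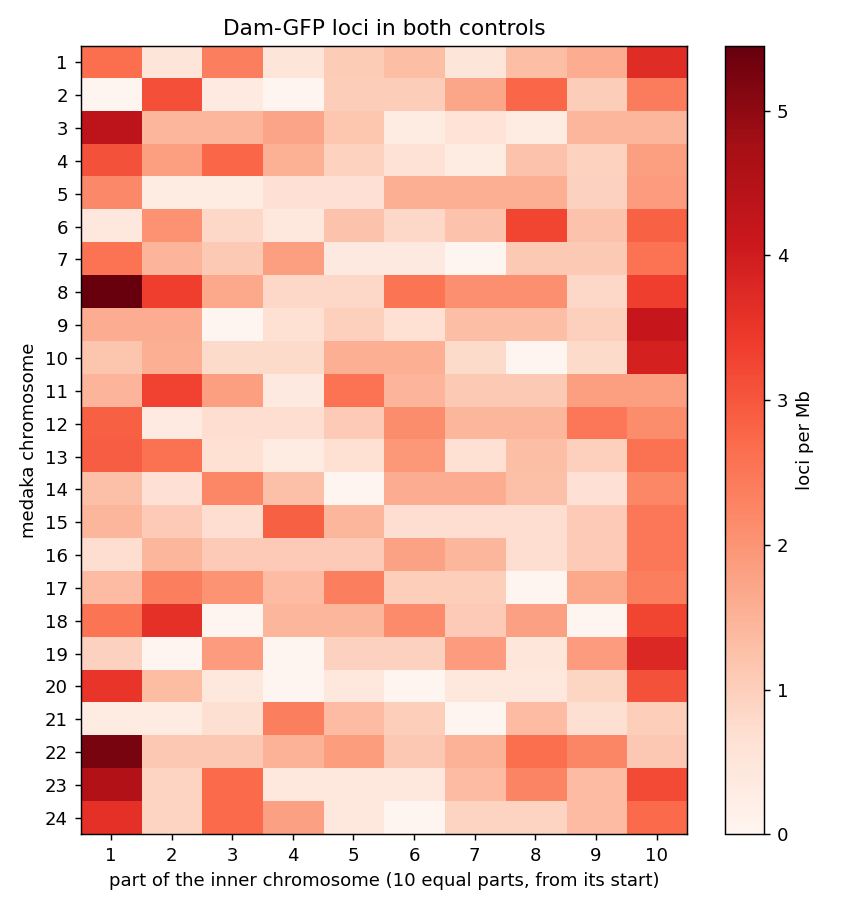
Loci per Mb (colour, from 0) in 10 equal parts of each inner medaka chromosome, from its start (left) to its end (right), for Dam-GFP loci in both controls. The outermost parts held 156 and 173 loci, the darkest columns, and the start of chromosome 2 held none.

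The 3 loci nearest the limit on its inner side lay on chromosome 8 (24860941 to 24861451, 1.004 Mb from the end), chromosome 18 (28776603 to 28777072, 1.006 Mb) and chromosome 3 (35594220 to 35596057, 1.012 Mb). Their scores were 80, 80 and 139 in the Yap1 control list and 152, 120 and 160 in the Yap1b control list. Just outside it were loci on chromosome 13 (992591 to 993035, 0.993 Mb), chromosome 10 (26605729 to 26606193, 0.987 Mb) and chromosome 16 (29023935 to 29025449, 0.984 Mb), with scores of 86, 123 and 97 in the Yap1 list and 132, 185 and 230 in the Yap1b list. No pair of regions straddled the limit.

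Whole chromosomes differed by a factor of 2.54 in the density of loci. The mean over the inner genome was 1.44 loci per Mb, over 674.8 Mb. Chromosome 8 was the densest, at 2.30 per Mb with 55 loci and an interval starting at 1.74, followed by chromosome 22 at 1.95 (1.45 to 2.55) with 52. Chromosome 21 was the sparsest, at 0.908 (0.598 to 1.32) with 27 loci, followed by chromosome 20 at 1.06 (0.677 to 1.57) with 24. The intervals of chromosomes 8 and 21 did not meet, whereas each chromosome's interval met that of its neighbour in the order. Both were picked as the extremes of all chromosomes, which favours such a gap, and the difference was not tested. Chromosome 8 was also first for single-control Yap1 regions, at 4.90 per Mb against a median of 3.55 over chromosomes, and above the median for single-control Yap1b regions, at 2.64 against 2.12.

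The shared positive loci were spread over the same chromosomes in another order, with a factor of 4.20 between the extremes. That factor rests on the low value of chromosome 2, since the next lowest, chromosome 18, had 1.62 per Mb. Chromosome 20, second lowest for the Dam-GFP loci, was the highest for shared positive loci, at 4.05 per Mb (3.27 to 4.97). Chromosome 2, the lowest for shared positive loci at 0.964 (0.640 to 1.39), had 1.34 Dam-GFP loci per Mb (0.954 to 1.83), close to the median of 1.42. Chromosome 18 had 1.73 Dam-GFP loci per Mb (1.27 to 2.29) and 1.62 shared positive loci (1.18 to 2.17). Chromosomes 2 and 18 were the only ones of 24 with more Dam-GFP loci than shared positive loci. The positive and control lists share the Dam-GFP sample, so these orders are set side by side without a measure of their relation.

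**Figure D5:**
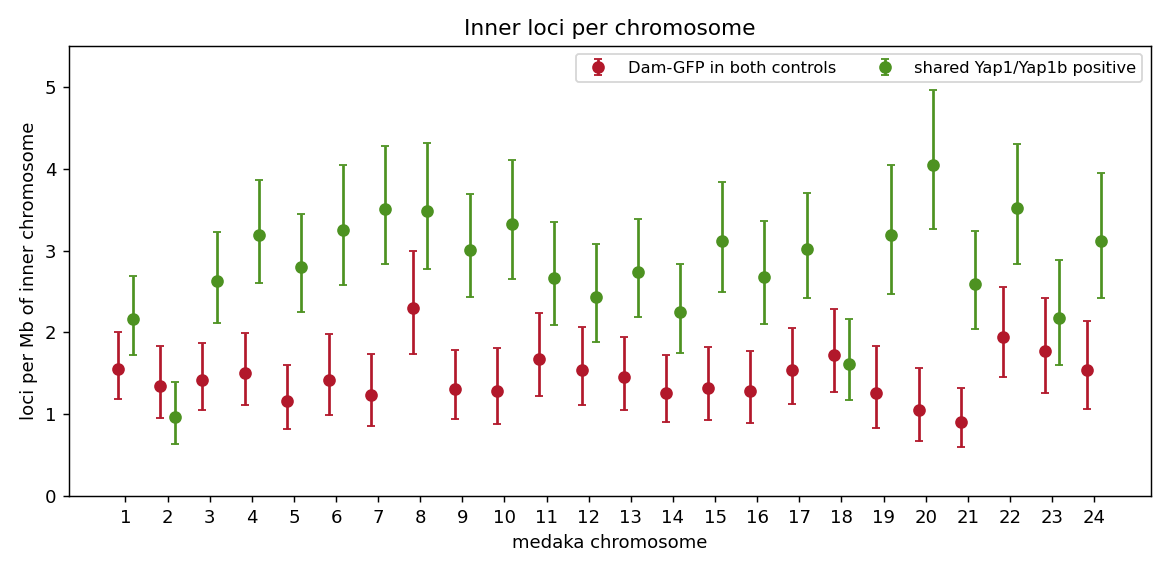
Loci per Mb of inner chromosome (vertical axis) on the 24 medaka chromosomes, with exact Poisson 95% intervals, for Dam-GFP loci in both controls (left point of each pair) and loci shared by the Yap1 and Yap1b positive lists (right point). The Dam-GFP loci ran from 0.908 on chromosome 21 to 2.30 on chromosome 8, and the positive loci from 0.964 on chromosome 2 to 4.05 on chromosome 20.

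Most loci had no other locus within 10 kb. The next locus lay a median of 185.0 kb away, and 64 of 975 (6.56%, 5.17 to 8.30) had another within 10 kb. The same share was 13.1% (11.8 to 14.4) for single-control Yap1 regions and 11.2% (9.69 to 12.9) for single-control Yap1b regions, which were denser, at 3.70 and 2.15 per Mb. It was 16.8% (15.2 to 18.6) for shared positive loci, at 2.78 per Mb. The loci in both controls were the sparsest of these sets, at 1.44 per Mb. The share that each density alone would give was not computed, so the lower share does not show wider spacing. A neighbour within 1 kb was found for 6 loci (0.615%), against 84 single-control Yap1 regions (3.36%) and 42 single-control Yap1b regions (2.89%). Joining overlapping regions into loci removes some close neighbours, and the part of this in the lower share was not tested. From 1 to 3 Mb, where the loci were denser, 11.1% (7.82 to 15.4) had another within 10 kb, against 4.91% (3.55 to 6.75) farther in. Single-control regions of either list, which outnumber the loci, were closer. The nearest lay a median of 39.7 kb from a locus, and 194 of 975 loci (19.9%, 17.5 to 22.5) had 1 within 10 kb.

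Windows of 100 kb held at most 3 loci. There were 784 windows with 1 locus, 82 with 2 and 9 with 3. In chromosome order the first 3 of these 9 lay on chromosome 1 (2216592 to 2235644) and on chromosome 3 (1530985 to 1544558 and 2035290 to 2060673), each less than 3 Mb from an end. Not all 9 lay so near an end, since a window with 3 loci on chromosome 10 was more than 3 Mb from both ends. Between neighbouring loci of a chromosome the gap had a median of 365.5 kb, and 69 of 951 gaps were over 2 Mb.

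The longest stretches without a locus, chosen after their values were seen, differed in what else they held. On chromosome 2 the stretch from 7546462 to 14348248 spanned 6.80 Mb and also held no shared positive locus, with 3 single-control Yap1 and 4 single-control Yap1b regions. It was thus poor in each kind of region counted there, while positive regions of a single factor were not counted. On chromosome 20 the stretch from 10638067 to 16864744, 6.23 Mb, held 27 shared positive loci, or 4.34 per Mb, with 15 and 11 single-control regions. On chromosome 21 the stretch from 16952227 to 22296511, 5.34 Mb, held 11 shared positive loci, or 2.06 per Mb, with 17 and 7 single-control regions.

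Last, the loci were set against the places where the Yap fusions exceeded Dam-GFP. No locus overlapped a positive region of either factor, 0 of 975. By counting alone, with 3 loci as the limit for a count of 0, a share of up to 0.308% is allowed. Overlaps were also rare for single-control regions, at 1 of 2498 in the Yap1 list and 1 of 1454 in the Yap1b list. Each control list stays clear of its own positive list, with at least 4 bp between them. The count of 0 is thus in large part fixed by how the lists were made, and the limit is no estimate of a true share. The nearest positive region lay a median of 53.6 kb away, against 55.6 kb for single-control Yap1 regions and 52.2 kb for single-control Yap1b regions. Within 10 kb, 122 of 975 loci (12.5%, 10.6 to 14.7) had a positive region, where 13.3% of all inner control regions did. The share was 13.5% (12.2 to 14.9) for single-control Yap1 and 14.2% (12.5 to 16.1) for single-control Yap1b regions. The intervals of the 3 sets for the share within 10 kb met, and a difference in distance was not tested.

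Of the 2 factors, Yap1 positive regions lay within 10 kb of 89 loci (9.13%, 7.48 to 11.1) and Yap1b positive regions within 10 kb of 86 (8.82%, 7.20 to 10.8). Loci positive for both factors lay within 10 kb of 52 (5.33%, 4.09 to 6.93). These shares by factor were not computed for single-control regions. A positive region of either factor lay within 1 kb of 7 loci (0.718%, 0.348 to 1.47). The share was 1.24% (0.876 to 1.76) for single-control Yap1 and 1.17% (0.731 to 1.86) for single-control Yap1b regions, and the intervals met. The 3 loci nearest a positive region were chosen after their values were seen. They were on chromosome 5 (32027432 to 32028008), 0.065 kb away, chromosome 4 (20024111 to 20024735), 0.669 kb away, and chromosome 16 (5859365 to 5860371), 0.678 kb away. Each had identical edges in both control lists.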

How the data were processed

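Region lists from iDamID-seq of medaka embryos were used, with the zebrafish lists for comparison. Per the labels' protocols, DNA was cut with DpnII and DpnI, ligated to adapters and amplified by 25 cycles of PCR. The submitters' processing notes name Bowtie2, cutadapt, bedtools and SAMtools with no version, and GRCz10 (danRer10), a zebrafish build. The region caller, its threshold and the medaka build are named in none of the sources used here. The deposited score column holds the authors' score, a whole number per region. Read depth is unknown.

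Overlaps, loci (joined overlapping regions), distances and densities were computed in Python 3.11.15 with NumPy 2.4.6, SciPy 1.17.1 and pandas 2.3.3, and the overlap step was tested on simulated data. Shares carry Wilson and densities exact Poisson 95% intervals. With 1 sample a group, no test was made. The members, comparisons and named loci were chosen with earlier results of these data known. Named were the 5 loci of highest mean score percentile, the 5 longest and 3 shortest overlaps, 3 loci on each side of the inner limit, up to 3 windows of 100 kb, and the 2 densest and 2 sparsest chromosomes. The densities by distance from an end, the longest stretches and the nearest positive regions were added after the data had been seen. Alternatives changed the overlap, the inner limit, the score minimum, merging and the neighbour distance.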

Additional observations from a re-analysis of the deposited data

How the results depend on the processing

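Of 68 recomputed values over 15 results and 9 alternatives, 51 stayed within the counting interval of the reported value or, for counts, within 1.5 times of it. An overlap of at least 0.5 of both regions gave 25.6% of the Yap1 and 36.6% of the Yap1b control regions, and identical edges in 84.5% of pairs, since pairs of unlike length drop out. Keeping only scores at or above the median of the list, which removes regions by construction, left 397 loci, 401 Yap1 and 398 Yap1b control regions. The shares were then 23.2% and 33.7%, the median lengths 833 and 824.5 bp, the share of loci with another within 10 kb 4.79%, and the lowest and highest chromosome densities 0.269 and 0.905 per Mb. Merging regions within 10 kb gave 30.1% and 42.3%. Within 50 kb, 20.5% of loci had another locus and 47.2% a positive region. The density from 1 to 3 Mb over that farther in, a result added after the data had been seen, was 2.22 in the main setting. Over the alternatives the ratio stayed between 1.94 (1.66 to 2.26, loci merged within 50 kb) and 2.37 (higher scores). Some of these changed the outer zone itself, with 2.28 for a zone to 2 Mb, 1.97 to 4 Mb and 1.98 for an inner limit of 2 Mb. Dropping the inner limit could not change the ratio, and that value is counted among the 51.

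No paired analysis was possible because each group is 1 sample, and leaving out a replicate was not run, since the lists give no values per replicate. Distances from an end rest on the last listed region of a chromosome, which is a lower bound of its length. Read depth is unknown.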
